A study of Mus musculus with 5 samples.

Results

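The 10 genes described here modulate Notch signalling: the Fringe genes Lfng, Mfng and Rfng, the Deltex genes Dtx1, Dtx2, Dtx3 and Dtx4, the Numb genes Numb and Numbl, and the Mastermind gene Maml2. They were chosen by name, with earlier results of these data known. Each was found among the 32793 gene symbols of both deposited matrices. All 10 passed the filter on low counts, which left 15885 genes to test. Bulk RNA was sequenced from whole mouse kidneys at embryonic day 15.5, with 2 NICD_mut and 3 NICD_wt libraries. The NICD_mut kidneys carried Six2TGC/+ together with RosaN1ICD∆PEST. Six2TGC makes Cre recombinase under control of the Six2 gene in nephron progenitors, and Cre switches on the Rosa allele, an activated Notch1 lacking the PEST segment. NICD_wt kidneys came from littermates with RosaN1ICD∆PEST and no Cre. Both groups therefore carried the Rosa allele, and the effects of the Cre driver and of activated Notch1 cannot be told apart. Ureteric epithelium, stroma, endothelium and blood cells do not descend from the progenitors that make Cre, but contribute to every library. The labels do not say whether a library came from a single animal, so the p-values speak for the scatter of these libraries, part of which may be technical.

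Notch is a receptor that is cut after binding a Delta or Jagged ligand on a neighbouring cell. The freed intracellular domain (NICD) enters the nucleus, where it joins the DNA-binding protein RBPJ and a Mastermind protein. Fringe enzymes work in the Golgi and extend O-fucose sugars on the outer part of the receptor, which changes how it responds to Delta and Jagged ligands. Deltex proteins are ubiquitin ligases that alter the traffic and stability of the receptor. Numb proteins are membrane-associated adaptors that oppose Notch by directing it to endocytosis. In the developing nephron, Notch signalling is known for its part in forming proximal segments. The activated form used here has no outer domain for Fringe to modify, and its missing PEST segment is the part through which the ligase Fbxw7 marks the intracellular domain for destruction.

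Libraries held 17361823 to 21356447 estimated counts. Pearson r of log2 CPM (counts scaled to library size) across genes, which are not independent replicates, was 0.961 between the NICD_mut libraries and 0.984 to 0.988 among the NICD_wt libraries. Notch1, the source of the transgene, had 288 and 324 CPM in NICD_mut against 120 to 142 CPM in NICD_wt, and a count per gene does not separate transgene from endogenous reads. Six2 had 7 and 6 counts in NICD_mut against 2411 to 3015 in NICD_wt. Podocyte and proximal tubule markers, which define kidney tissue, had counts in every library. Podocyte markers were higher in 6 of 7 cases and lower in 1, at a summed 1510 and 2217 CPM in NICD_mut against 862 to 915 CPM in NICD_wt. Of 7 proximal tubule markers 4 were higher, 1 was lower and 2 did not pass, at 1055 and 1150 CPM against 506 to 637 CPM. Loop of Henle and distal tubule markers were all lower in NICD_mut (7 of 7, at a summed 18.6 and 12.7 CPM against 506 to 589 CPM), with Slc12a1 and Slc12a3 at 0 in NICD_mut 2. Ureteric and collecting duct markers were also lower (7 of 7, at 75.7 and 70.5 CPM against 317 to 356 CPM), with Aqp2 at 0 in NICD_mut 2. Stroma and mural markers were higher in 5 of 7 cases and did not pass in 2, at 6150 and 2977 CPM in NICD_mut against 1422 to 1813 CPM in NICD_wt, and none was at 0. Of 6 erythroid markers 4 were higher and 2 did not pass, at 10210 and 11360 CPM against 4492 to 5808 CPM, and none was at 0. The 7 skeletal muscle markers summed to 3220 CPM in NICD_mut 1 and 13.9 CPM in NICD_mut 2, against 5.05 to 135 CPM in NICD_wt, with 0 of 7 past the threshold and none at 0. The part of these cell populations in the values of the modulators was not tested.

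In NICD_mut kidneys Numbl, Dtx4, Dtx3, Maml2 and Numb rose and Lfng fell, while Mfng, Rfng, Dtx1 and Dtx2 did not pass the test. The largest rise was that of Numbl, to 61.3 ± 3.63 CPM in NICD_mut against 31.8 ± 1.70 CPM in NICD_wt (SD, n = 2 and 3). Lfng was at 30.3 ± 6.47 CPM in NICD_mut against 58.2 ± 5.78 CPM in NICD_wt (SD, n = 2 and 3). Thus 5 of 10 modulators were higher, where 23.0% of all tested genes were, and 1 of 10 was lower, where 24.8% of all tested genes were. In either direction the share was 6 of 10, beside a background of 47.7%, so the number of modulators called is close to that of genes at large. Their median log2 fold change in counts was 0.37, beside 0.01 over all tested genes. Groups did not overlap in CPM for 6 modulators that were higher and 2 that were lower, where 32.9% and 34.2% of tested genes were separated in those directions and 67.2% in either. Over all genes, 3649 were higher and 3934 lower on counts; by limma on log2(TPM + 1) the split was 4448 higher (28.0%) and 2803 lower (17.6%), with 6 modulators higher and 1 lower. TPM (transcript abundance scaled for gene length and depth) gave a median of 0.11 log2 over all tested genes, against which changes on the TPM scale are to be read. In bulk tissue, fewer cells of a type and less RNA per cell cannot be told apart.

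**Figure D1:**
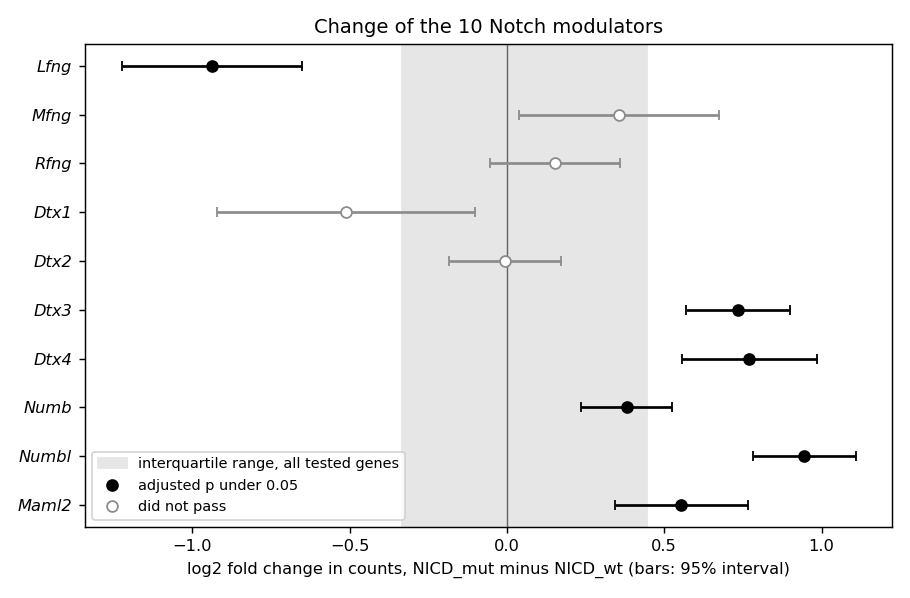
Log2 fold change in counts (x axis, NICD_mut minus NICD_wt) of the 10 modulators (rows), with bars of the 95% interval; filled points have an edgeR adjusted p under 0.05 and open points do not. The grey band is the interquartile range of all 15885 tested genes, -0.33 to 0.45; Lfng lies left of it, and Dtx3, Dtx4, Numbl and Maml2 lie right of it.

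Lfng (lunatic fringe; chromosome 5, mm10, 140607320 to 140615545, plus strand) is the Fringe gene best known in the forming nephron, where its transcripts mark parts of the early tubule that also make the ligand Dll1. It was at 34.9 and 25.7 CPM in the NICD_mut libraries, against 52.0, 59.1 and 63.4 CPM in the NICD_wt libraries. Both NICD_mut libraries lay below every NICD_wt library, and NICD_mut 2 was the lower of the pair. The log2 fold change was -0.94 (SE 0.15, edgeR adjusted p = 0.00164). Without NICD_mut 2 it was -0.74, and without NICD_mut 1 it was -1.18. Dll1 itself had 10.8 and 11.0 CPM in NICD_mut against 38.4 to 45.3 CPM in NICD_wt (-1.96 log2, SE 0.11). Among 7 markers of the renal vesicle and S-shaped body 3 were lower, 1 was higher and 3 did not pass. These markers summed to 829 and 1155 CPM in NICD_mut against 998 to 1008 CPM in NICD_wt, and none was at 0. Among 7 nephron progenitor markers 6 were lower, at a summed 73.5 and 39.2 CPM against 506 to 521 CPM, and none was at 0. The part of either cell population in the Lfng result was not tested.

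Promoter sequence was available for 7 of the 10 genes in 10 windows, each running from 250 bases before to 50 bases after an annotated start (RefSeq, GRCm38.p6, the mm10 build). Windows were searched on both strands for TGGGAA, the core of the RBPJ binding motif, for the longer GTGGGAA, and for the E-box CACGTG, a motif of basic helix-loop-helix factors such as the Hey repressors. TGGGAA was found in 3 of the 10 windows, beside 25.6% of all 32851 windows; GTGGGAA was found in 1 of 10, beside 6.38%; and CACGTG was found in 1 of 10, beside 7.15%. All 3 motifs occurred in the Lfng window, where the E-box and the longer RBPJ motif overlap by 3 bases and the E-box starts 112 bases before the annotated start. A second RBPJ core on the other strand began 135 bases before that start. Dtx2, whose level was nearly equal in the groups, and the downstream start of Maml2, which rose, held 1 core each. The upstream Maml2 window, chr9:13297708-13298007, had no match, and a count per gene does not separate the starts. Numbl, with the largest rise, had no match, and neither did Dtx1, Rfng or any window of Numb, which also rose. No window was available for Mfng, Dtx3 and Dtx4, so these were not searched. The windows below are shown to set the gene that fell beside one that rose without a motif and one with no detected change. Maml2, also shown, rose and had a motif at its downstream start alone. Capitals mark the motif letters. Coordinates are chr5:140607091-140607390 (plus strand) for Lfng, chr5:135994550-135994849 (plus strand) for Dtx2, chr9:13662210-13662509 (plus strand) for Maml2 and chr7:27258511-27258810 (plus strand) for Numbl. A match is a description of these letters and not evidence of a site in use.
Lfng: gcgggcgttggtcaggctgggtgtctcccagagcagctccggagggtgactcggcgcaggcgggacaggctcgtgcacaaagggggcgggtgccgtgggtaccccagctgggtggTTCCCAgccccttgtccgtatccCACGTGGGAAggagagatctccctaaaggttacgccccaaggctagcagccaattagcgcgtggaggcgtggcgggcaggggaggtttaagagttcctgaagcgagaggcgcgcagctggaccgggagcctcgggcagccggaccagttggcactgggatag
Dtx2: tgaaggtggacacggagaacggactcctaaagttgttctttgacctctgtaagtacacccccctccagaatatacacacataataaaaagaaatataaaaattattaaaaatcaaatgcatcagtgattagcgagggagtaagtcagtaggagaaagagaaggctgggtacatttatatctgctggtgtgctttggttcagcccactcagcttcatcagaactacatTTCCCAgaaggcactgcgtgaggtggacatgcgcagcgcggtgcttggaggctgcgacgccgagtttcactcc
Maml2: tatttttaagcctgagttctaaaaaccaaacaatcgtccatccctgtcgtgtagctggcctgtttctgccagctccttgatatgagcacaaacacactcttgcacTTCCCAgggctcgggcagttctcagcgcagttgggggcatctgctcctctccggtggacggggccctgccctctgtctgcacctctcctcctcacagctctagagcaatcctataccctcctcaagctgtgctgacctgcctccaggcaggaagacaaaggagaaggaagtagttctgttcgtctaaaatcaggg
Numbl: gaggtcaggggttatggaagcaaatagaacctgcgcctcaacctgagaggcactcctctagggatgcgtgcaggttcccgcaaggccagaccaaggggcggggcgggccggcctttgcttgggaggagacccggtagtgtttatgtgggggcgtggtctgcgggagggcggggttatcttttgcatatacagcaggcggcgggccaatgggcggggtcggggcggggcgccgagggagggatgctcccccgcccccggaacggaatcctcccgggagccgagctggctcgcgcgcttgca

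Mfng (manic fringe; chromosome 15, 78755882 to 78773475, minus strand) was at 19.5 and 27.6 CPM in NICD_mut against 16.3, 19.3 and 19.5 CPM in NICD_wt. NICD_mut 1 lay within the NICD_wt range and NICD_mut 2 above it. The log2 fold change was 0.36 (SE 0.16) and did not pass (edgeR adjusted p = 0.101). Leaving out NICD_mut 1 gave 0.59 with an edgeR adjusted p = 0.00331, on a lone NICD_mut library assumed to vary like the others. Leaving out NICD_mut 2 gave 0.08. Mfng is known from immune cells and endothelium, whose markers were higher in NICD_mut. All 7 endothelial markers were higher, at a summed 1012 and 1161 CPM in NICD_mut against 638 to 692 CPM in NICD_wt. Of 7 leukocyte markers 6 were higher and 1 did not pass, at a summed 140 and 137 CPM in NICD_mut against 52.4 to 59.6 CPM in NICD_wt. None of these markers was at 0 in any library, and their part in the Mfng values was not tested.

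Rfng (radical fringe; chromosome 11, 120780746 to 120784207, minus strand) was the steadiest Fringe gene among NICD_mut libraries, at 22.7 and 23.9 CPM against 22.4, 20.4 and 20.2 CPM in NICD_wt. The groups were barely apart. Its log2 fold change on counts was 0.15 (SE 0.11, normal 95% interval -0.06 to 0.36) and did not pass (edgeR adjusted p = 0.265). On the TPM scale Rfng was at 24.5 and 23.7 TPM in NICD_mut against 18.5, 18.1 and 18.1 TPM in NICD_wt. There the difference was 0.38 on log2(TPM + 1) and passed (limma adjusted p = 0.00544), beside a median of 0.11 over all tested genes on that scale.

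Within the Fringe family the share of Lfng was lower in NICD_mut. Lfng held 39.5% and 28.5% of the summed Fringe TPM in NICD_mut libraries, against 53.4%, 54.9% and 56.5% in NICD_wt libraries. The difference in mean share was -20.95 percentage points, with no overlap between groups (exact two-sided permutation test p = 0.2, the smallest that 2 against 3 libraries allow). Mfng held 28.0% and 39.3% in NICD_mut against 21.5% to 23.2% in NICD_wt, and Rfng held 32.5% and 32.2% in NICD_mut against 21.2% to 25.1% in NICD_wt. Summed over the family, the level was 75.4 and 73.5 TPM in NICD_mut against 73.8, 82.2 and 85.4 TPM in NICD_wt, and the groups overlapped (exact two-sided permutation test p = 0.4). In NICD_mut 2 Mfng was the most abundant Fringe transcript, whereas Lfng was so in each of the 3 NICD_wt libraries and in NICD_mut 1.

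**Figure D2:**
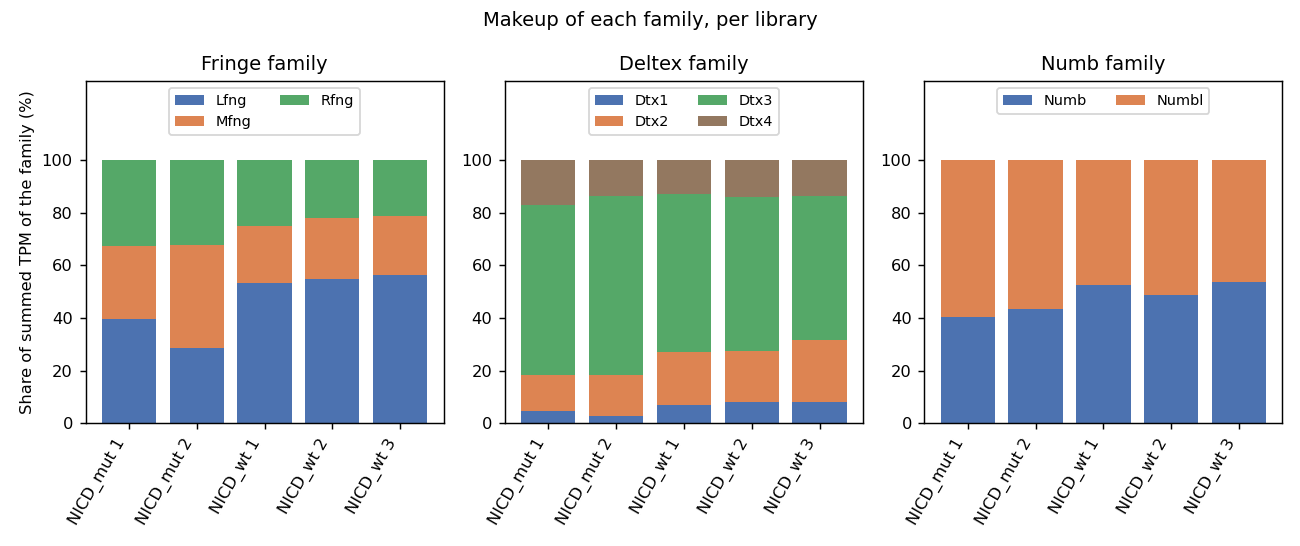
Share of each gene (stacked, y axis in percent) in the summed TPM of its family, for the 5 libraries (x axis). Lfng holds 39.5% and 28.5% of Fringe TPM in NICD_mut libraries and 53.4% to 56.5% in NICD_wt libraries; Dtx3 is the largest part of the Deltex family in every library; Numbl holds 59.6% and 56.7% of the Numb pair in NICD_mut against 46.3% to 51.1% in NICD_wt.

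Dtx3 (chromosome 10, 127190378 to 127195728, minus strand), a short Deltex ligase without the region through which Dtx1, Dtx2 and Dtx4 bind Notch, was the most abundant of the 10 genes per unit length. It was at 107 and 109 CPM in NICD_mut against 69.9, 68.0 and 57.7 CPM in NICD_wt. The NICD_mut libraries differed from each other by less than the NICD_wt libraries did, and the groups were well apart. The log2 fold change was 0.73 (SE 0.08, edgeR adjusted p = 0.000155), and it ran from 0.65 to 0.79 when each library was left out in turn.

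Dtx4 (chromosome 19, 12466338 to 12501454, minus strand), a ligase linked to internalisation of the receptor, was at 80.9 and 62.4 CPM in NICD_mut against 40.1, 44.1 and 41.7 CPM in NICD_wt. Both NICD_mut libraries exceeded every NICD_wt library, and here NICD_mut 1 was the higher one. Its log2 fold change was 0.77 (SE 0.11, edgeR adjusted p = 0.000634). Without NICD_mut 1, the library with most muscle and most stromal and mural transcripts, it was 0.57. Without NICD_mut 2 it was 0.94, and each of these fits rests on a lone NICD_mut library.

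Dtx1 (chromosome 5, 120680202 to 120711927, minus strand), a ligase often used as a readout of Notch activity in lymphocytes, was at 16.6 and 10.01 CPM in NICD_mut against 17.5, 20.6 and 18.9 CPM in NICD_wt. NICD_mut 1 lay just below the NICD_wt libraries and NICD_mut 2 well below them. The log2 fold change of -0.51 (SE 0.21) did not pass (edgeR adjusted p = 0.0785). Without NICD_mut 1 it was -0.92, and without NICD_mut 2 it was -0.20, each on a lone NICD_mut library. On the TPM scale the groups overlapped, at 8.25 and 4.75 TPM in NICD_mut against 7.79 to 9.17 TPM in NICD_wt.

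Dtx2 (chromosome 5, 135994800 to 136032872, plus strand), another Notch-binding Deltex ligase, was at 33.6 and 36.1 CPM in NICD_mut against 34.6, 33.1 and 37.3 CPM in NICD_wt. Groups overlapped fully. The normal 95% interval of its log2 fold change ran from -0.18 to 0.17 (edgeR adjusted p = 0.966). Such an interval is narrow for 5 libraries, so it leaves room for changes of that size or somewhat larger.

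As a family the Deltex genes summed to 176 and 164 TPM in NICD_mut against 112, 111 and 104 TPM in NICD_wt, with no overlap (exact two-sided permutation test p = 0.2, the smallest possible). Dtx3 held 64.5% and 68.2% of that sum in NICD_mut against 54.7% to 60.02% in NICD_wt. Dtx4 held 16.96% and 13.6% in NICD_mut against 12.8% to 14.1% in NICD_wt, and these ranges overlapped (exact two-sided permutation test p = 0.6). The Dtx1 share was 4.69% and 2.89% in NICD_mut against 6.92% to 8.23% in NICD_wt, and the Dtx2 share was 13.9% and 15.3% in NICD_mut against 19.3% to 23.5% in NICD_wt.

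Numbl (Numb-like; chromosome 7, 27258433 to 27282144, plus strand), an adaptor that overlaps with Numb in function, was at 63.9 and 58.7 CPM in NICD_mut against 31.1, 33.8 and 30.6 CPM in NICD_wt. Both NICD_mut libraries lay far above every NICD_wt library. The log2 fold change was 0.94 (SE 0.08, edgeR adjusted p = 3.88e-05), with a range of 0.88 to 0.995 when each library was left out. Among all tested genes 82.4% had a smaller absolute change.

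Numb (chromosome 12, 83794034 to 83921934, minus strand), the founding member of the family, was at 55.3 and 58.1 CPM in NICD_mut against 44.4, 42.0 and 44.4 CPM in NICD_wt. The groups did not overlap. Its rise was smaller, at 0.38 log2 (SE 0.07, edgeR adjusted p = 0.00265), and 50.2% of tested genes had a smaller absolute change. Of the annotated exonic bases of Numb, 4.24% are shared with a transcript on the opposite strand, and the strand setting of the counting is not given in the sources used here.

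Taken as a pair, Numb and Numbl summed to 73.0 and 68.2 TPM in NICD_mut against 40.6, 41.1 and 40.9 TPM in NICD_wt. Numbl held 59.6% and 56.7% of that sum in NICD_mut against 47.6%, 51.1% and 46.3% in NICD_wt. The mean share was 9.82 percentage points higher, without overlap (exact two-sided permutation test p = 0.2, the smallest possible). In every NICD_mut library Numbl exceeded Numb per unit length, while in NICD_wt it did so in 1 library of 3.

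Maml2 (chromosome 9, 13297957 to 13709388, plus strand) encodes a Mastermind coactivator that completes the NICD and RBPJ complex on DNA. It was at 27.5 and 32.5 CPM in NICD_mut against 19.9, 20.4 and 21.1 CPM in NICD_wt, so both NICD_mut libraries were above all NICD_wt libraries. The log2 fold change was 0.55 (SE 0.11, edgeR adjusted p = 0.00278), and 0.42 without NICD_mut 2 against 0.67 without NICD_mut 1. Its paralogs are given for comparison and were singled out after their values had been seen. Maml3 rose by 0.36 log2 (SE 0.11, edgeR adjusted p = 0.027), with 58.3 and 71.1 CPM in NICD_mut against 46.0, 55.9 and 49.1 CPM in NICD_wt. Maml1 was at 105 and 116 CPM in NICD_mut against 106, 106 and 115 CPM in NICD_wt, and its change of 0.03 log2 (SE 0.07) did not pass (edgeR adjusted p = 0.781).

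Per unit length, Dtx3 ranked first in both groups, at a mean of 113 TPM in NICD_mut and 63.2 TPM in NICD_wt. In NICD_mut Numbl came next, at 41.1 TPM, and was clear of Numb at 29.5 TPM. Dtx4, Lfng, Mfng, Dtx2 and Rfng then followed between 26.1 and 24.1 TPM, where each overlapped its neighbour in the order. Maml2 at 8.12 TPM and Dtx1 at 6.50 TPM were lowest and overlapped each other. In NICD_wt the second place belonged to Lfng, at 44.3 TPM, clear of Dtx2 at 22.9 TPM. Below it Dtx2 and Numb overlapped, as did Numb and Numbl, and Rfng and Mfng, while Dtx4 at 14.8 TPM, Dtx1 at 8.46 TPM and Maml2 at 5.05 TPM stood apart. Lfng thus had rank 5 in NICD_mut and rank 2 in NICD_wt, and Numbl rank 2 in NICD_mut and rank 5 in NICD_wt.

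**Figure D3:**
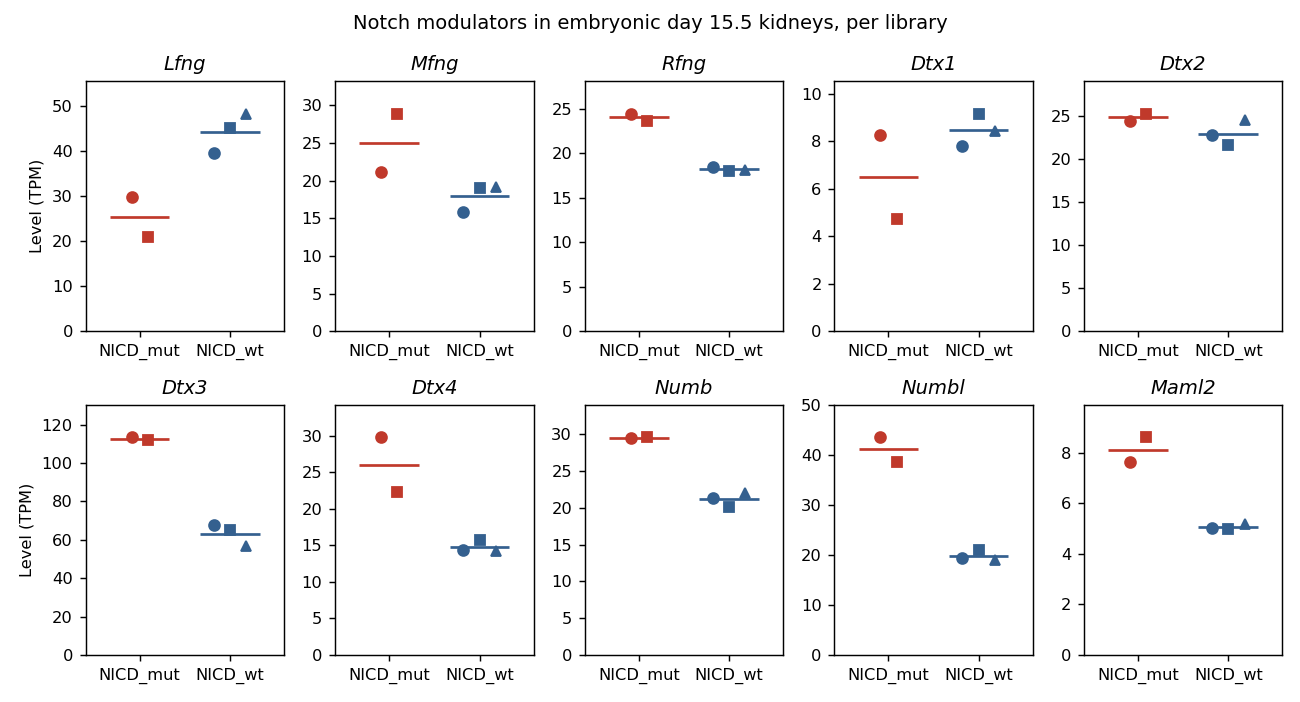
Level in TPM (y axis, from 0, with its own scale in each panel) of each modulator per library in NICD_mut (red, left) and NICD_wt (blue, right); circles, squares and triangles are replicates 1, 2 and 3 and the lines are means. Numbl sits at 43.5 and 38.7 TPM in NICD_mut above 18.9 to 21.04 TPM in NICD_wt, and Lfng at 29.8 and 20.9 TPM in NICD_mut below 39.4 to 48.3 TPM in NICD_wt.

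The NICD_mut libraries differed in which modulators moved most. NICD_mut 2 gave the larger departure for Lfng, Mfng, Dtx1 and Maml2, and NICD_mut 1 the larger one for Dtx4. Numbl also departed more in NICD_mut 1, at 0.995 log2 without NICD_mut 2 and 0.88 without NICD_mut 1. Numb, Dtx3 and Rfng departed slightly more in NICD_mut 2. Across the 5 fits that each leave out a library, the calls of Lfng, Dtx3, Dtx4, Numb, Numbl and Maml2 kept their direction and stayed past the threshold. Mfng and Dtx1 passed in none of the fits that kept both NICD_mut libraries. Without NICD_mut 1 or NICD_mut 2 a lone NICD_mut library remained, and the spread within NICD_mut could not be estimated. Rfng and Dtx2 passed in none of the 5 fits. Leaving out both NICD_mut 1 and NICD_wt 1, the libraries with most muscle transcripts, gave a log2 fold change of 0.50 for Mfng and -0.98 for Dtx1. That fit also rests on a lone NICD_mut library.

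**Figure D4:**
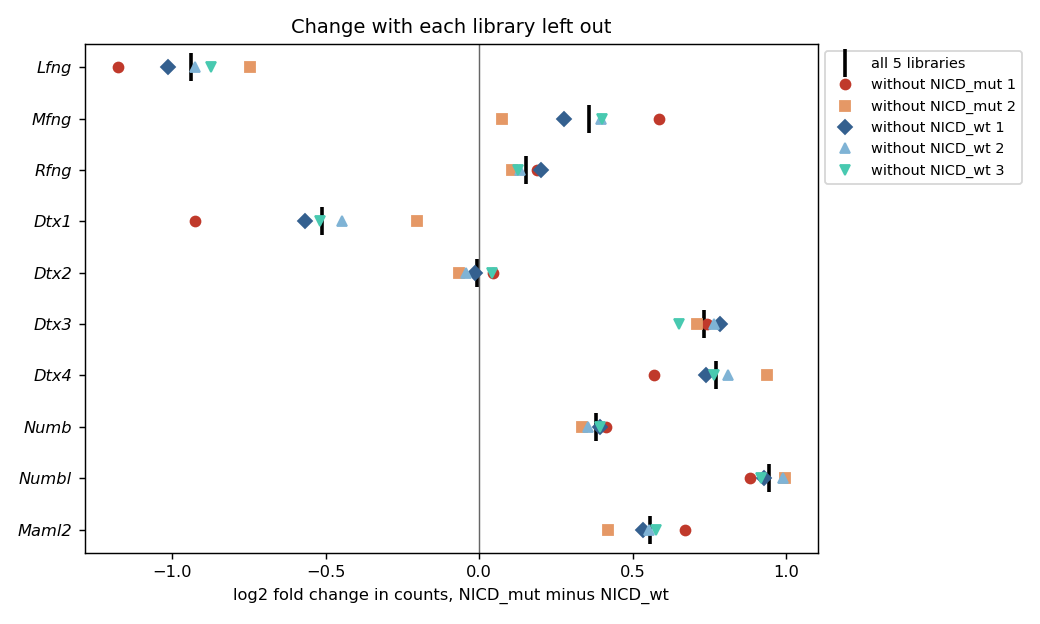
Log2 fold change in counts (x axis, NICD_mut minus NICD_wt) of each modulator with all 5 libraries (black bar) and with each library left out (coloured symbols). Mfng spans 0.08 to 0.59 and Dtx1 -0.92 to -0.20, whereas Numbl stays between 0.88 and 0.995 and Dtx3 between 0.65 and 0.79.

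Other Notch pathway genes were taken from 8 lists of 65 genes, of which 64 were tested; 21 were higher, 7 lower and 36 did not pass, with a median log2 fold change in counts of 0.13. Over all tested genes 23.0% were higher and 24.8% lower, and each list below is to be read beside those shares. Notch1, whose count may hold transgene reads, is among the 21 that were higher. On log2(TPM + 1), 34 of the pathway genes were higher and 5 lower, beside 28.0% and 17.6% of all tested genes on that scale. In the O-glycosylation list, whose enzymes place or extend O-linked sugars on the receptor, 2 of 8 were higher and 3 lower. Poglut1, which adds O-glucose to the receptor, had 38.7 and 44.1 CPM in NICD_mut against 53.7 to 58.4 CPM in NICD_wt (log2 fold change -0.42, SE 0.09). Xxylt1, which extends that sugar with xylose, changed by -0.48 (SE 0.09), and Kdelc2, also known as the O-glucosyltransferase Poglut3, by 0.35 (SE 0.07). Pofut1, the enzyme that places the O-fucose on which Fringe acts, did not pass (0.05, SE 0.06) and was chosen after its value was seen.

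Turnover and trafficking genes included partners of Deltex and Numb. Of 7 genes for receptor ubiquitination and turnover 1 was higher and 6 did not pass. The ligase Nedd4 changed by 0.13 (SE 0.04), and neither the Deltex relative Dtx3l (0.42, SE 0.20) nor Fbxw7 (-0.24, SE 0.11) passed. Of 4 ligand ubiquitin ligases, Mib2 was higher, with 62.6 and 69.7 CPM in NICD_mut against 41.0 to 48.7 CPM in NICD_wt (0.59, SE 0.09), and Neurl1b (0.52, SE 0.22) and Mib1 (0.09, SE 0.08) did not pass. Among 8 Numb partners 4 were higher and 0 lower. Aak1, a kinase of clathrin adaptors that binds Numb, had 113 CPM in both NICD_mut libraries against 80.8 to 86.9 CPM in NICD_wt (0.42, SE 0.06). Lnx2, a relative of the Numb ligase Lnx1, rose by 0.69 (SE 0.12). Lnx1 itself, singled out after its value was seen, had 1.74 and 0.937 CPM in NICD_mut against 2.13 to 2.67 CPM in NICD_wt, and its change of -0.87 (SE 0.39) did not pass (edgeR adjusted p = 0.0969). The polarity protein Pard3 rose by 0.17 (SE 0.06).

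In the RBPJ nuclear complex 4 of 12 genes were higher and 2 lower. The related acetyltransferases went opposite ways: Kat2b changed by 0.53 (SE 0.10) and Kat2a by -0.64 (SE 0.06). Of 10 cleavage genes 2 were higher and 0 lower, namely the gamma-secretase subunits Psen2 (0.49, SE 0.11) and Ncstn (0.33, SE 0.09), while Furin did not pass (0.12, SE 0.06). Of 9 tested receptors and ligands 4 were higher and Dll1 alone was lower. The 4 include Notch1, whose count may hold transgene reads by design. Notch2 changed by 0.53 (SE 0.07). Among 6 target genes 3 were higher, including Hey2 (1.44, SE 0.15) and Heyl (1.38, SE 0.15), and Hes5 alone was lower (-3.82, SE 0.30).

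**Figure D5:**
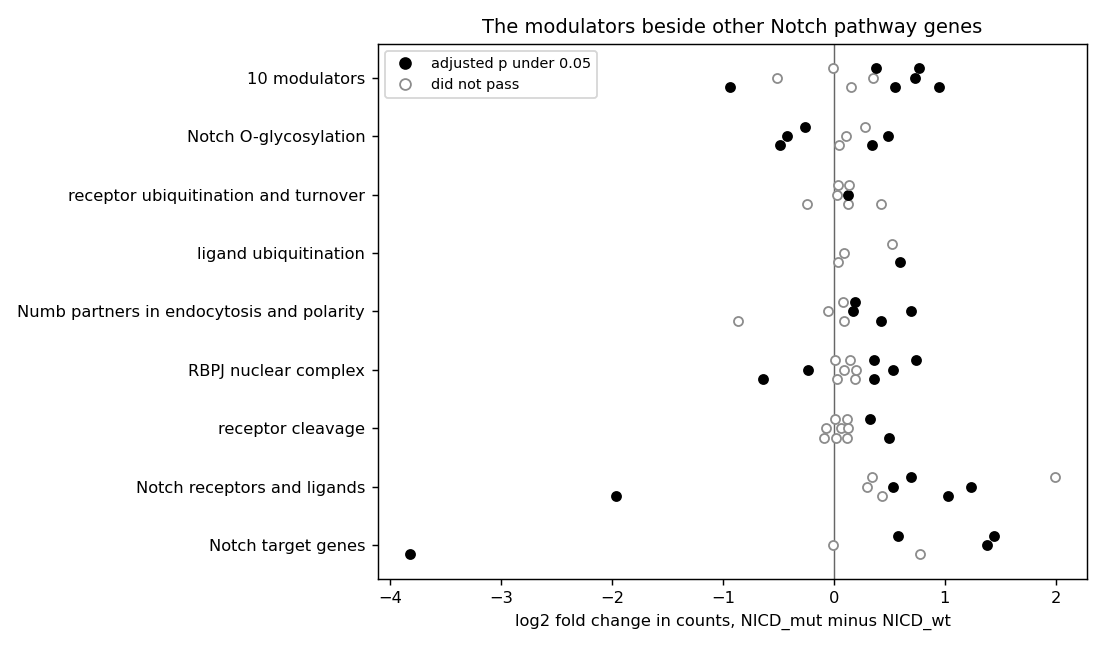
Log2 fold change in counts (x axis, NICD_mut minus NICD_wt) of the 10 modulators and of each tested gene in 8 other Notch pathway lists (rows); filled points have an edgeR adjusted p under 0.05. The modulators span -0.94 to 0.94, while receptors and ligands span -1.96 to 1.996 and target genes -3.82 to 1.44. The point at 1.996 is Dlk1, which did not pass. Dlk1 is at 851.5 CPM in NICD_mut 1 and 194 CPM in NICD_mut 2, against 84.75 to 188.8 CPM in NICD_wt.

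The genes whose log2 CPM followed a modulator most closely over the 5 libraries were sought among all tested genes whose mean log2 CPM was 3 or more. Efna2 (Pearson r = 0.998) was nearest to Lfng and Fam222b (r = 0.996) to Mfng. The alpha globin gene Hba-a2 (r = 0.9994) was nearest to Dtx3 and Mapt (r = 0.9995) to Dtx4. Tspan11 (r = 0.9998) was nearest to Numb and Rragc (r = 1.0) to Maml2. With 5 libraries in 2 groups and so many genes to choose from, coefficients near 1 arise for many genes, and they are given as a description alone.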

How the data were processed

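Kidney RNA from 2 NICD_mut and 3 NICD_wt libraries was sequenced, and replicate numbers come from the sample titles. RSEM and Bowtie2 were run against mm10, per the submitters' processing notes. Not given in the sources used here are versions, annotation and strand setting. The authors deposited estimated counts per gene symbol, as whole numbers, and TPM for the same libraries. RSEM shares reads among similar genes by estimation.

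Counts were scaled with TMM and filtered by group (filterByExpr, minimum count 10, minimum total 15). NICD_mut was tested against NICD_wt without covariates in R 4.3.3 with edgeR 4.0.16 (quasi-likelihood test, robust). P-values were Benjamini-Hochberg adjusted over all 15885 genes, with a threshold of 0.05. Fold changes set NICD_mut over NICD_wt. The 95% intervals are normal, from the SE, and narrower than the quasi-likelihood test implies. CPM are TMM-scaled. Family shares were compared by exact permutation over libraries (scipy 1.17.1). The script was tested on simulated data.

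Alternatives were other scalings and filters, DESeq2 1.42.0, limma 3.58.1 with voom and on log2 TPM with pseudocounts of 1 and 0.1, a replicate block, and libraries left out. The modulators and all lists were chosen with earlier results of these data known. Named pathway genes were up to 3 per list with the smallest adjusted p, or 2 where none passed, and any that alone moved against its list. A few genes taken by these rules are not reported here. Neighbours in pattern are given for up to 2 genes a family. Coordinates are 1-based, from GENCODE M21. Figures used matplotlib 3.10.9.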

Additional observations from a re-analysis of the deposited data

How the results depend on the processing

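Under 16 alternative settings Lfng, Dtx3, Dtx4, Numb, Numbl and Maml2 kept their direction and stayed past the threshold. Numbl ran from 0.86 to 1.05 log2, Dtx3 from 0.65 to 0.84, Dtx4 from 0.53 to 0.94, Maml2 from 0.42 to 0.67, Numb from 0.34 to 0.48 and Lfng from -1.25 to -0.74. Rfng passed in the 3 fits on TPM (0.38 to 0.40 log2) and in none of the 13 on counts. Dtx2, at -0.01, took the other sign without passing at 0.001 with DESeq2 size factors, 0.015 with a stricter filter (50 counts in 2 libraries), 0.002 by the DESeq2 Wald test, 0.111 on log2(TPM + 1) with or without the filter, 0.116 on log2(TPM + 0.1), 0.042 with the replicate block and 0.032 without NICD_mut 1 and NICD_wt 1. With each library left out it ran from -0.066 to 0.044. Lower modulators numbered 1 to 2 with each library left out and 2 without NICD_mut 1 and NICD_wt 1. Higher pathway genes numbered 34 on log2(TPM + 1) and 33 on log2(TPM + 0.1), beside 4448 and 4385 of all tested genes. With NICD_wt 1, 2 and 3 left out in turn they numbered 14, 21 and 15, beside 2919, 3068 and 2797 of all tested genes. On TPM without a filter 2606 genes of all were lower. The cause of these shifts was not tested.

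The difference in the Dtx4 share was 1.76 percentage points on TPM, 5.21 on counts, which are not corrected for length, and -0.268 without NICD_mut 1 and NICD_wt 1, with 0.0798 to 3.44 when each library was left out. The Lfng share difference ran from -26.5 to -15.4 and that of Numbl from 8.35 to 11.3 when each was left out.

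With replicate number as a block, 5 modulators were higher and 1 lower, and 2654 genes of all were higher and 2881 lower. Deviations of same-numbered libraries from their group mean correlated at 0.34 for number 1 and 0.149 for number 2 across genes. NICD_mut 2 correlated more with NICD_wt 3, at 0.234. The deviations of the 2 NICD_mut libraries mirror each other, so these values are not separate evidence. With 2 pairs and no label of shared litter, the numbers were not taken to pair the libraries. Mfng, Rfng and Dtx1, which did not pass, had 203 to 559 counts a library, and Maml2, which passed, had 367 to 660.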

Other observations

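Within a library, the estimated count divided by the TPM is proportional to the mean effective transcript length that RSEM used for a gene. This ratio, set to the median over 12352 well-counted genes in each library and to the gene's own mean over libraries, was examined after the data had been seen and was not tested. For Rfng it was 0.93 and 0.969 in NICD_mut against 1.086, 1.016 and 1.005 in NICD_wt, so the mean length was shorter in both NICD_mut libraries, by 0.125 on the log2 scale. Of the genes examined, 96.8% differed less between groups. For Dtx4 the ratio was 1.039 and 1.025 in NICD_mut against 0.955, 0.971 and 1.013 in NICD_wt, longer in both NICD_mut libraries. Here 93.7% of the genes examined differed less. GENCODE M21 lists 1 transcript for Dtx4, and the annotation that RSEM used is not given, so a change of transcript mix cannot be read from this ratio. Numbl was slightly longer in both, at 1.009 and 1.002 in NICD_mut against 0.994, 0.994 and 1.001 in NICD_wt. Its difference was 0.014 on the log2 scale, and 73.8% of the genes examined differed less. How many genes have ratios without overlap between groups was not counted. For Lfng the ratio lay between 0.994 and 1.003 in all 5 libraries. Rfng is the modulator whose call differs between counts and TPM.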
